A study of Homo sapiens with 15 samples.

Results

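The regions described here were 304 long stretches of the HCT116 genome that were called unmethylated in all 5 control libraries, grown without the inducing drug, and lay outside the large, partly methylated blocks of the genome. They were chosen from measured values, namely the domain calls of the 5 Baseline libraries. An autosomal base pair was kept where all 5 calls placed it in an unmethylated region (UMR) and none placed it in a partially methylated domain (PMD), and joined pieces of 3.5 kb or more became members. All 5 calls shared 31130 UMR pieces of any length, of which 12660 lay outside PMDs, 5586 of these were short pieces of 1.5 kb to under 3.5 kb, and 304 were long. In this cell line most long shared UMR pieces lay inside PMD calls instead (14995 pieces).

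HCT116 is an established human colorectal carcinoma line. Whole-genome bisulfite sequencing read CpG methylation (mC, the methylated share of reads at a CpG) in 15 libraries from 5 populations carrying a doxycycline (dox) inducible short hairpin RNA. shUHRF1 was carried by 3 single-cell clones (Cl.3, Cl.6 and Cl.9) and shDNMT1 by 2 bulk populations (R1 and R2), and each population gave a Baseline library (day 14, no dox but the solvent DMSO), a Knockdown library (day 14, with dox at 10 ng/mL throughout) and a Recovery library (day 28, after 14 days with dox and 14 days without). The hairpin and the kind of population go together and cannot be told apart. Cl.3 and Cl.6 were deposited in one count table, Cl.9 in its own and R1 and R2 in another. No count table holds both hairpins, so the table cannot be told apart from the hairpin either. Whether the R1 and R2 cultures were established independently is not given in the sources used here, so that the p-values below measure the spread between these populations. The files hold no expression values, so that neither the depletion of either protein nor the identity of the cells could be checked by marker genes.

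Long unmethylated stretches, often called methylation valleys or canyons, typically lie over CpG islands and reach well past them into the flanking sequence, and many cover genes of transcription factors and signalling proteins. DNMT1 is the maintenance methyltransferase that copies CpG methylation onto the new DNA strand after replication, and UHRF1 is the protein that recognises half-methylated DNA and recruits DNMT1 to it. Without either protein, methylation is diluted as cells divide, while a CpG that carries none has none to copy.

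The libraries held between 317670080 and 593644411 reads at CpGs, with a median of 11 to 21 reads per autosomal CpG. One library stood apart. Mitochondrial DNA, which carries little or no CpG methylation, read as 2.50% methylated in the Cl.6 Baseline and as 0.257% to 0.500% in the other 14 libraries (median 0.334%). Within the members, whose levels were themselves only a few percent, the Cl.6 Baseline was also the highest Baseline, and the pooled changes of the clones are given with and without Cl.6. Its part in those results was not tested. In a population, methylation of fewer cells and of fewer alleles per cell cannot be told apart.

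To show what these regions look like, windows of 30 bases are given from the valleys over TNRC18 and NR4A2, the longest that hold the 5′ end of a gene, from the longest member of all, a gene-free stretch whose nearest coding gene is RBM19, and from the valleys of JUNB and HES1. Each is the hg38 plus strand, read 5′ to 3′, and is the window of the core (more than 500 bp from either edge) or of the outer 500 bp with the most CpGs. Capitals mark CpGs.
TNRC18 core, chr7:5423976-5424005: CGCGCGCGcCGccaatcaCGCGcatgtaaa
TNRC18 outer, chr7:5418552-5418581: CGctcatccaCGtcCGcagagcccaacctt
NR4A2 core, chr2:156342421-156342450: tgtCGcCGgCGtcCGgCGCGcagcccCGCG
NR4A2 outer, chr2:156332010-156332039: CGggaaacatCGCGCGctggccagcCGCGg
near RBM19 core, chr12:114135778-114135807: acaCGttgagtgtttcagattgacctagCG
JUNB core, chr19:12793574-12793603: CGcaggCGCGtcccCGcccagcCGCGCGCG
HES1 core, chr3:194134986-194135015: CGctctcCGcCGccCGtCGcCGcccccCGc
The windows fall into contrasting types. The core windows of TNRC18, NR4A2, JUNB and HES1 held 7 or 8 CpGs and read between 0 and 8.20% in every Baseline. The core window near RBM19, although it was the richest of that member, held only 2 CpGs, which read between 53.2% and 72.2% at Baseline, between 9.38% and 30.2% at Knockdown and between 15.3% and 55.6% at Recovery, on 18 to 66 reads per library. The outer window of NR4A2 read between 3.08% and 7.91% at Baseline, between 0.556% and 3.77% at Knockdown and between 0.483% and 15.2% at Recovery.

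The 304 members spanned 1405371 bp and 73108 CpGs, of which 62028 lay in the cores, and they occurred on all 22 autosomes. Their lengths ran from 3500 to 23665 bp with a median of 4100 bp, 64 were 5 kb or longer, and 8 were 10 kb or longer. Just above the length limit were a piece near ARMC3 (3500 bp, Baseline core mC between 5.54% and 9.83%), the piece shared by DOT1L, a histone H3 lysine 79 methyltransferase gene, and AP3D1 (3500 bp, 0.949% to 3.26%) and a piece near PDGFA (3505 bp, 0.307% to 3.54%). Just below it were a piece near AGAP9 (3495 bp, 0% to 3.23%) and the piece of KLK10, a kallikrein-related peptidase gene (3497 bp, 1.55% to 4.40%), together with the piece shared by BRCA1, a DNA repair gene, and NBR1 (3499 bp, 0.578% to 2.75%). The piece near ARMC3 lay above all 3 pieces just below the limit, and the other ranges overlapped. The sequence of the members was rich in G and C, with a median of 58.2% GC, 5.42 CpGs per 100 bp and an observed to expected CpG ratio of 0.692. The short pieces outside PMDs were denser, with a median of 6.58 CpGs per 100 bp, whereas the long pieces inside PMDs had 0.508.

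The 5′ end of a protein-coding gene lay in 216 members (71.1%), against 76.4% of the short pieces outside PMDs and 0.914% of the long pieces inside PMDs. The 216 members held 278 coding genes, or 1.46% of the 19103 in the annotation, and 52 of them held 2 or more. Another 37 members held only 5′ ends of other annotated genes, 36 lay within a coding gene without holding a 5′ end, and 15 did none of these. By base pairs, 42.5% of the members was intron, 23.9% exon (6.71% coding sequence and 17.2% untranslated exon) and 22.8% lay outside any gene. Among the 164 members with exactly 1 coding 5′ end, the valley reached a median of 1499 bp upstream of it and 2699.5 bp downstream, into the gene body, and 121 of them (73.8%) were longer downstream, against 80.4% of the short pieces.

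Genes of several regulatory families occurred at the members. Of 39 immediate early and feedback genes, many of which respond quickly to growth factor signals, 8 (20.5%) lay at members, namely IER2, JUNB and JUND (AP-1 subunits), IER5L, and DUSP4, DUSP5, DUSP6 and DUSP14 (dual-specificity phosphatases), where all coding genes gave 1.46%. Of 26 KLF and SP zinc finger genes there were 4 (15.4%, namely KLF6, KLF10, KLF13 and SP3), of 11 ZIC and GLI genes 2 (18.2%, namely GLI1, the Hedgehog effector, and GLIS2), and of 49 basic helix-loop-helix genes 4 (8.16%), which were the inhibitors ID1 and ID2 and the repressors HES1 and HES4. Of 43 nuclear receptor genes 3 (6.98%) lay at members, the orphan receptors NR4A2, NR4A3 and NR2F1. The developmental homeobox family, with which valleys are often associated, had 4 of 197 genes at members (2.03%, namely TSHZ1, CUX1, SIX4 and SIX5), the forkhead family 2 of 49 (4.08%, FOXO1 and FOXO3) and the SOX family 1 of 18 (5.56%, SOX12). A signalling list covered ligands, antagonists, receptors and SMAD genes of the Wnt, Notch, FGF, ephrin, TGF-beta and Hedgehog pathways. It had 4 of 126 genes at members (3.17%, JAG1, DKK1, FGF9 and EFNA5). Of 77 cytosolic ribosomal protein genes there were 4 (5.19%), and none of 5 GATA, 15 T-box, 20 colon epithelium or 38 proteasome genes lay at a member. Histone genes, a list made after the members had been seen, contributed 15 of 74 (20.3%), which shared 7 members. These counts describe which genes were covered, and no enrichment was tested.

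Because the members held genes of histones and immediate early factors, promoter windows running from 250 bp before to 50 bp after the RefSeq start (GRCh38.p14) were searched on both strands. RefSeq windows matched 230 of the 278 genes. The letters TATAAA occurred in 12.6% of them, against 4.60% of the windows at short pieces and 9.72% of all coding windows. CCAAT occurred in 44.3%, 37.9% and 36.3%, and GGGCGG in 73.0%, 74.9% and 59.6%, of the 3 sets in the same order. TGACGTCA occurred in 3.04%, 3.97% and 2.70% and the CArG box in 2.61%, 0.869% and 1.25%, so that, as a ratio, the shares of TATAAA and the CArG box at members were the furthest above those at the short pieces, the latter on 6 windows. In 13 genes TATAAA lay before the start and outside exons. Histone genes such as H3C13, H2BC21, H2AC20, H1-4 and H2AC17 were among them, and no share without histone genes is given. The following windows of hg38 are given on the strand of the gene, with those letters in capitals.
H3C13 (minus strand), chr1:149813707-149813736: ggagactatgtcTATAAAtatgactgccta
H1-4 (plus strand), chr6:26156288-26156317: agctccgccctaTATAAAcgggcgggcgca
EEF2 (minus strand), chr19:3985476-3985505: ccggcgtccgccTATAAAaagctgagtgtt
JUNB (plus strand), chr19:12791443-12791472: tgactagcgcggTATAAAggcgtgtggctc
ID1 (plus strand), chr20:31605246-31605275: ccgtggcgtgttTATAAAagacaagctgtg
H3C13 and H1-4 encode histones H3 and H1, and EEF2 encodes the elongation factor that moves the ribosome along the messenger RNA. In these windows CpGs were few, and those of ID1 showed no methylated read in any library, on 16 to 67 reads. Matches of letters are a description of the sequence and not evidence that a factor binds there.

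At Baseline, pooled core mC was 1.77% in Cl.3 (Wilson 95% interval 1.74% to 1.81%, which covers counting error only), 3.81% in Cl.6, 1.71% in Cl.9, 1.27% in R1 and 1.22% in R2. It was 4.78%, 6.25%, 5.35%, 3.73% and 3.64% in the outer 500 bp, and 68.3%, 66.8%, 66.5%, 61.3% and 61.5% in the 500 bp beyond the edges, in the same order. The clones were thus above the bulk populations in all 3 zones, and methylation climbed steeply across the edge. These levels were what the choice of members rested on and are given as a description.

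The members were not uniformly unmethylated. A group of 30 members (9.87%, against 1.63% of the short pieces) had under 2 CpGs per 100 bp, a limit set after the data had been seen, and their pooled core mC was between 7.88% and 9.86% at Baseline, against 1.03% to 3.63% in the CpG-rich rest. Only 2 of the 30 held the 5′ end of a coding gene. Core mC exceeded 10% in all 5 Baselines in 8 members, and all 8 were CpG-poor, whereas it exceeded 5% in 20 members, of which 16 were CpG-poor. For the members above these levels the name unmethylated valley does not match the measured level. The 30 are called CpG-poor members here, and they varied among themselves, since 6 were under 1% in the Cl.3 Baseline and 4 each in R1 and R2. In 103 of the 304 members core mC was under 1% in each of the 4 Baselines other than Cl.6. Reads were scarcer at some members, and 25 had fewer than 5 reads per core CpG in at least 1 library. A PMD call cut 29 members at an edge.

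**Figure D1:**
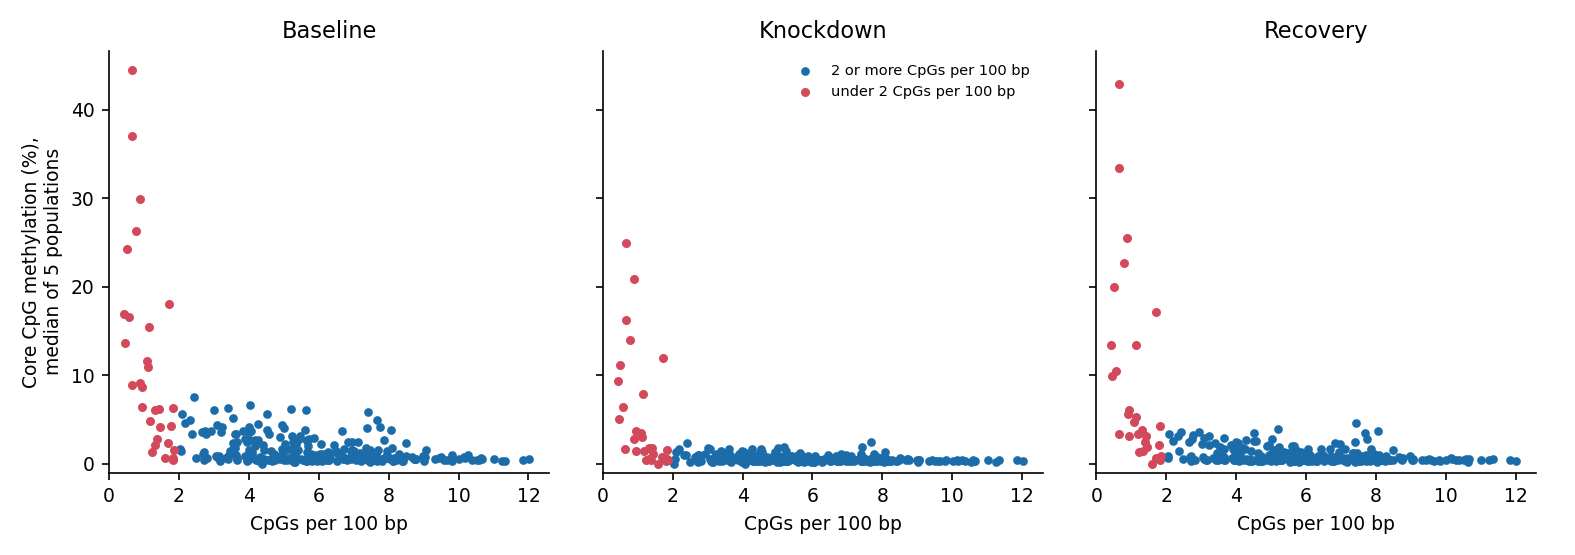
Each point is 1 of the 304 members, plotted by its CpGs per 100 bp (x axis) and its core CpG methylation in percent as the median of the 5 populations (y axis) at Baseline, Knockdown and Recovery. The members with under 2 CpGs per 100 bp (red) spread up to 37.0% at Baseline (the piece overlapping HLA-DRB1), apart from the point at 44.4%, a piece near ENSG00000284209 with too few reads for a value, and lie lower at Knockdown, while the members with 2 or more (blue) lay below 10% in each panel.

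Among the 10 longest members, only TNRC18, NR4A2, HLA-DQA1 and PHLDA1 held a coding 5′ end. TNRC18 (chr7:5418196-5430288, 12093 bp) encodes a chromatin-associated protein. At Baseline its core read 0.633% in Cl.3, 2.73% in Cl.6, 1.99% in Cl.9, 0.680% in R1 and 0.497% in R2. NR4A2 (chr2:156331994-156343578, 11585 bp), a nuclear receptor gene induced without ligand by many stimuli, had 2.37%, 5.13%, 2.32%, 2.12% and 1.92% in the same order. The valley of PHLDA1 (chr12:76024758-76033142, 8385 bp), a growth factor-induced gene, had 1.45%, 5.06%, 0.830%, 0.641% and 0.930%. In all 3 valleys Cl.6 was the highest of the 5 Baselines.

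The longest member (chr12:114123430-114147094, 23665 bp) overlapped no gene and lay 157105 bp from the 5′ end of RBM19, a gene needed for ribosome production. With 0.566 CpGs per 100 bp its Baseline core mC was between 14.9% and 17.2%. Another long member without a gene lay near CD1A (chr1:158220000-158230364), with 9.72% to 19.3%. The gene-free piece near PPIAL4G had as few as 1.32 reads per core CpG in a library. A piece inside TTC34 and nearest to MMEL1 (chr1:2681364-2694504), had 6.49% to 12.4% on as few as 2.68 reads per core CpG. The remaining long members lay in the major histocompatibility complex, where near-identical genes make the placement of short reads uncertain. They were the piece at HLA-DQA1 (chr6:32621758-32632042, 19.8% to 28.0%), a piece beside it (chr6:32643076-32653378, 26.4% to 31.8%) and a piece overlapping HLA-DRB1 (chr6:32566930-32579220, 34.2% to 38.1%). These genes encode class II antigen-presenting chains.

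At Knockdown, core mC was 0.923% in Cl.3, 0.884% in Cl.6, 0.594% in Cl.9, 0.572% in R1 and 0.530% in R2, so that no Knockdown level overlapped a Baseline level. The loss was 1.63 ± 1.13 percentage points in the shUHRF1 clones (mean ± SD, n = 3) and 0.69 ± 0.01 in the shDNMT1 populations (n = 2), as changes of -1.63 and -0.69. Without Cl.6 the change in the clones was -0.98 ± 0.19 (n = 2), and with each library's mitochondrial level subtracted it was also -0.98 for the 3 clones. In the outer 500 bp mC was 1.90%, 1.52%, 1.36%, 1.27% and 1.31%, a change of -3.87 ± 0.94 points in the clones (-3.43 ± 0.79 without Cl.6) and of -2.39 ± 0.09 in the bulk populations. Beyond the edge the clones read 42.3% (Cl.3), 37.0% (Cl.6) and 27.8% (Cl.9), but R1 read 21.2% and R2 20.6%. The bulk populations were therefore the lowest in all 3 zones, by several points or more beyond the edge and by under 1 point in the cores and the outer zone. Their mitochondrial level at Knockdown was also lower, at 0.257% against 0.331% to 0.500% in the clones. Cl.9 was above R1 in the cores (0.594% against 0.572%) and above R2 in the outer zone (1.36% against 1.31%). Both gaps were smaller than the gap in mitochondrial level. With that level subtracted, the bulk populations were therefore not both the lowest in either zone.

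The Baseline level of a member was part of its selection, so the change was also computed on pieces chosen by the same rule from the other 4 Baselines, which gave sets of 311 to 356 pieces that contained all 304 members. On these sets core mC changed by -1.83 ± 1.18 points in the clones (-1.15 ± 0.18 without Cl.6) and by -0.75 ± 0.04 in the bulk populations, with exact two-sided sign-flip permutation p of 0.25 and 0.5, which are the smallest that 3 and 2 populations allow. Outer mC changed by -4.74 ± 0.84 (-4.42 ± 0.90 without Cl.6) and -2.47 ± 0.09 points, with the same exact permutation p. The direction was shared by all 5 populations in both zones.

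Single pieces were then tested, in populations that had not chosen them, on their methylated and unmethylated read counts (edgeR's quasi-likelihood test, Benjamini-Hochberg adjustment). Of 502 tested long pieces outside PMDs chosen by the bulk Baselines, 474 (94.4%) fell at Knockdown in the shUHRF1 clones and 0 rose, where 96.7% of all 39218 pieces tested fell and 0.0459% rose. Of 379 chosen by the clone Baselines, 316 (83.4%) fell in the shDNMT1 populations and 0 rose, where 88.4% of all 33140 pieces fell and 0.0815% rose. Both shares were close to the background of all unmethylated pieces. In the clones this depended on the fit, since without the block for population edgeR called 285 of the 502 and 7876 of the 39218 as falling. Without Cl.6 it called 414 of 505 and 29913 of 39248. Among members with the same boundaries in these sets, the odds of a methylated read at JUNB fell by 1.97 ± 0.39 on the log2 scale (estimate ± SE) in the clones and by 1.38 ± 0.29 in the bulk populations, with adjusted p from edgeR of 3.2e-06 and 0.00069. NR4A2 fell by 1.57 ± 0.24 in the bulk populations (edgeR adjusted p = 7.6e-05), TNRC18 by 1.59 ± 0.43 in the clones (edgeR adjusted p = 0.00028) and the piece near RBM19 by 1.24 ± 0.33 in the clones (edgeR adjusted p = 0.00029). The clone estimates for these members include the Cl.6 Baseline and are not given without it. Their sizes are therefore not compared with those of the bulk populations.

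Counting members without a test, core mC was lower at Knockdown than at Baseline in all 3 clones at 227 members and higher in all 3 at 0. In Cl.6 core mC was 1.65% or more at every member at Baseline, while its median at Knockdown was 0.661%. The Cl.6 Baseline therefore weighs on both counts, which are not given without it. Core mC was lower in both bulk populations at 229 members and higher in both at 8. In the outer 500 bp, 262 members were lower in all clones and 1 higher, and 278 were lower in both bulk populations and 2 higher.

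The largest core losses in points were at CpG-poor members, whose Baseline levels were the highest. The piece overlapping HLA-DRB1 went from 38.1% to 28.8% in Cl.3, from 37.0% to 22.4% in Cl.6 and from 34.2% to 16.2% in Cl.9, while R1 went from 38.1% to 14.2% and R2 from 35.1% to 12.9%. Its mean changes were -13.9 ± 4.4 and -23.1 ± 1.1 points. The piece over RAG1 and RAG2 near IFTAP (chr11:36588454-36593588), whose genes encode the recombinase of antigen receptor assembly, had 24.3%, 25.4%, 16.2%, 21.8% and 25.4% at Baseline and 15.3%, 15.8%, 6.68%, 8.28% and 11.2% at Knockdown. Pieces beside HLA-DQA1, near TACR3 (a neurokinin receptor gene) and near C1QTNF6 completed the 5 largest losses with shUHRF1, with changes of -12.1, -9.48 and -9.34 points. With shDNMT1 they were completed by the pieces at HLA-DQA1 (-14.0), near RBM19 (-10.6) and near ENSG00000284209 (-13.6, with as few as 0.105 reads per core CpG, too few for a value). Both the piece near RBM19 and that over RAG1 and RAG2 were read at 10 or more reads per core CpG in every library. Their Baseline and Knockdown levels did not overlap, which their choice by the size of the loss favours.

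In core mC no member was higher at Knockdown in all 3 clones. Of the 8 whose core was higher in both bulk populations, the 5 with the largest mean were POMZP3 (0.868 points, on as few as 1.39 reads per core CpG), a piece near TRIM27 (0.38), DCBLD2 (0.27), VASP, an actin-binding protein gene (0.229), and a piece near ARID1B, a chromatin remodeller subunit gene (0.139). At the piece near TRIM27, for example, R1 went from 0.686% to 0.979% and R2 from 1.68% to 2.15%, on 14.5 or more reads per core CpG. Over the whole piece, outer zone included, none of these 5 was called as rising with shDNMT1 by edgeR on the pieces chosen by the clone Baselines, and the piece near ARID1B fell by 0.80 ± 0.33 on the log2 odds scale (edgeR adjusted p = 0.037).

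Single CpGs within the cores told the same story at higher resolution. Of 13334 core CpGs with at least 10 reads in all 15 libraries, between 2.39% and 3.89% were 20% methylated or more at Baseline, between 0.547% and 1.26% at Knockdown, and between 1.09% and 2.20% at Recovery. Such CpGs were chosen by their level in the bulk or the clone Baselines and read in the other kind of population. The choice of single CpGs thus did not use their levels in the libraries read. The members that hold them had, however, been chosen from the Baseline calls of both kinds of population. The read minimum also applied to all 15 libraries. The Baseline values read are therefore not independent of the choice of members. The 249 CpGs at 20% or more in both bulk Baselines lay in 97 members and read 51.0%, 26.0% and 29.2% at Baseline, Knockdown and Recovery of Cl.3, 47.9%, 19.8% and 25.5% in Cl.6, and 49.0%, 12.5% and 20.3% in Cl.9. The 175 CpGs chosen in all 3 clone Baselines lay in 78 members and read 51.7%, 17.7% and 45.8% at the 3 stages of R1, and 52.4%, 17.4% and 47.4% in R2. Within the members so chosen, the same positions therefore carried methylation in separate populations. Their median distance to the edge (1329 and 1375 bp) was close to that of the other core CpGs (1330 bp).

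Spacing of CpGs went with the level. Core CpGs whose nearest neighbour was at 20 bp or more read between 4.10% and 6.27% at Baseline, and those with a nearer neighbour between 0.831% and 3.46%. At Knockdown the sparse CpGs of Cl.3 were 3.12 points lower and the dense ones 0.511 points lower, as changes of -3.12 and -0.511, and in Cl.9 the changes were -4.02 and -0.762. The sparse CpGs, which started higher, had the larger loss in points in each of the 5 populations. As a percentage of Baseline they also lost more in 4 of the 5, for example with changes of -57.7% against -40.7% in Cl.3. The exception was Cl.6, with -68.8% against -78.8%, whose Baseline had the raised mitochondrial level. At Knockdown the dense CpGs read between 0.407% and 0.743%, near the mitochondrial levels of the libraries other than the Cl.6 Baseline (0.257% to 0.500%). The percentages are not given with that background subtracted, so they do not settle which CpGs lost the larger share.

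**Figure D2:**
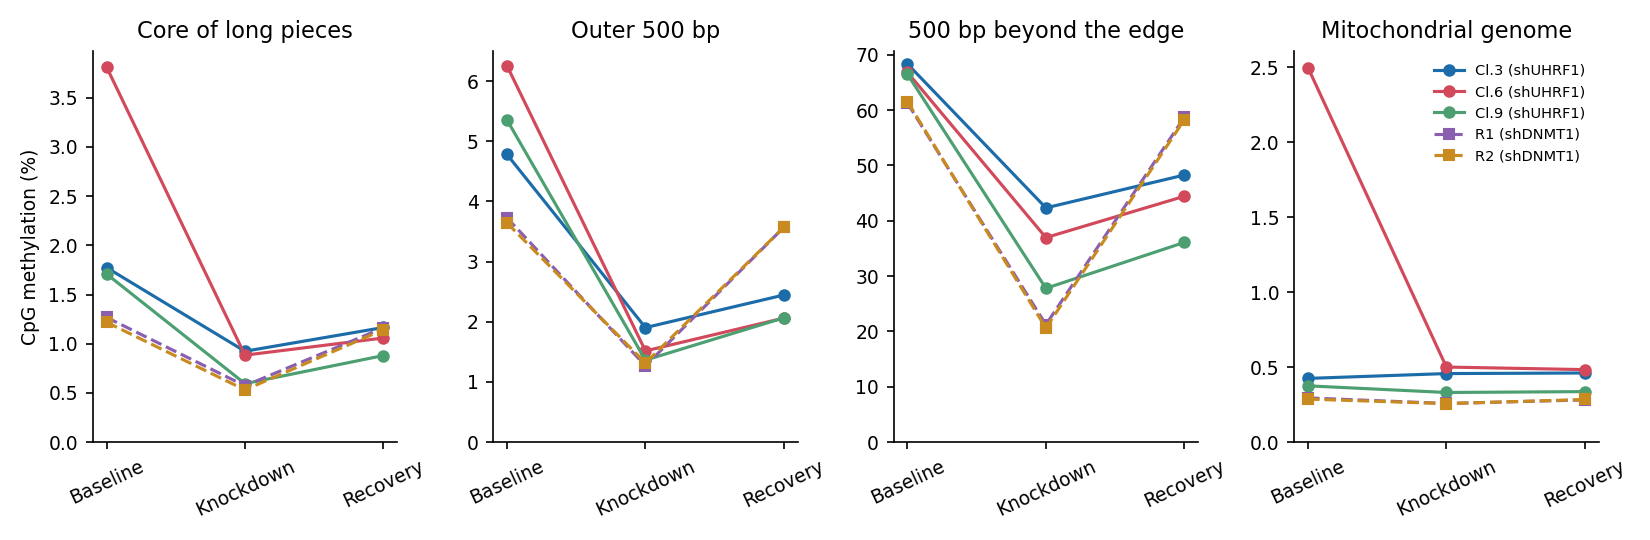
CpG methylation in percent (y axes from 0, each panel with its own scale) at Baseline, Knockdown and Recovery for the member cores, their outer 500 bp, the 500 bp beyond the edge and the mitochondrial genome, with 1 line for each of the 5 populations. In R1 and R2 the Recovery points return towards Baseline (1.16% and 1.14% in the cores), the clones lie between Knockdown and Baseline and nearer to Knockdown in the 3 panels of the members, and the Cl.6 Baseline stands apart in the mitochondrial panel at 2.50%.

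The profile across the edge showed where methylation was lost. Between 500 and 600 bp beyond the edge, Cl.3 went from 81.7% at Baseline to 61.0% at Knockdown, Cl.6 from 82.2% to 54.6% and Cl.9 from 80.7% to 40.0%, whereas R1 went from 78.6% to 31.0% and R2 from 79.0% to 29.1%. In the first 100 bp inside the edge Baseline mC was 12.5%, 13.3%, 14.5%, 10.6% and 10.3%, and Knockdown mC 4.78%, 3.59%, 3.11%, 3.31% and 3.17%. The 2 hairpins thus left different levels outside and like levels inside. As a share of Baseline, the outer 500 bp kept 29.8 ± 8.7% at Knockdown in the clones while the 500 bp beyond the edge kept 53.0 ± 10.3% (SD, n = 3). Without Cl.6 the shares were 32.6 ± 10.2% and 51.9 ± 14.2% (n = 2). For R1 and R2 the mean shares were 35.1% inside and 34.1% outside. In each of the 3 clones a smaller share was left inside the edge than outside it.

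**Figure D3:**
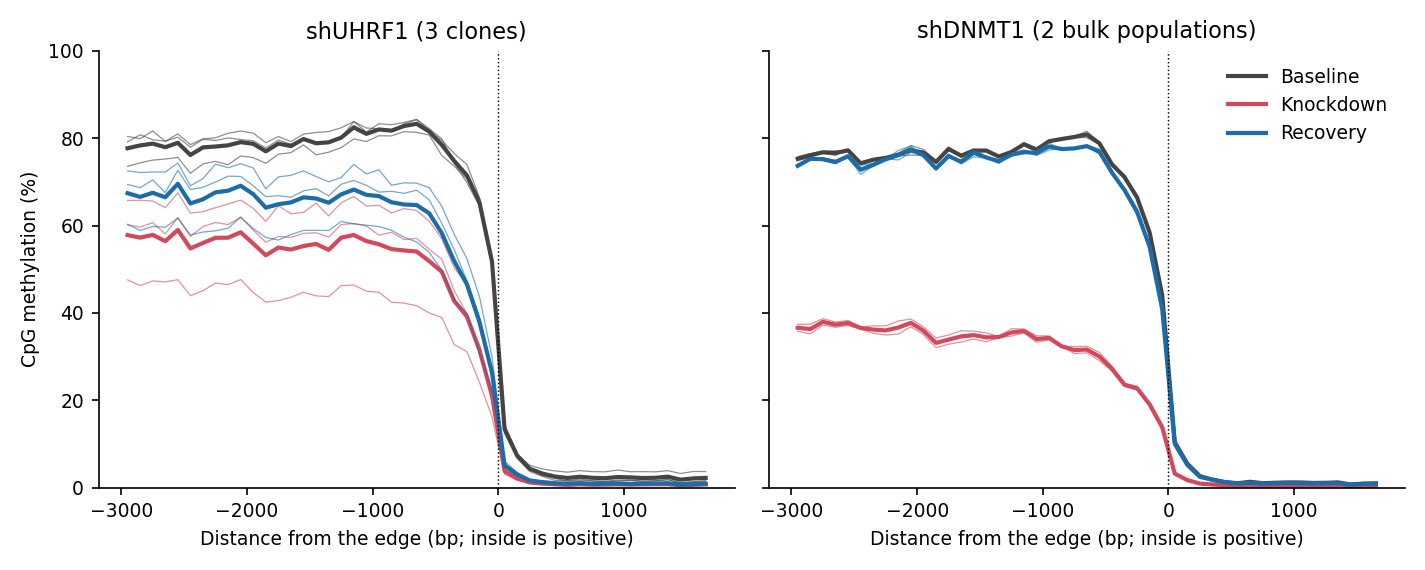
CpG methylation in percent (y axis) against distance from the member edge in bp (x axis, negative outside, positive inside), in bins of 100 bp, with thin lines for each population and thick lines for the mean at Baseline, Knockdown and Recovery. Outside the edge the Recovery line of the bulk populations lies slightly below the Baseline line (58.5% against 61.4% over the first 500 bp), and that of the clones lies between Knockdown and Baseline.

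The authors' own UMR calls at the members grew accordingly. The call that covered a member had a median length of 4268 to 4369 bp in the 5 Baselines, a length that the rule sets a floor for. At Knockdown it was 5061.5 bp in Cl.3, 5271 bp in Cl.6, 6318.5 bp in Cl.9, and it reached 9171 bp in R1 and 9713 bp in R2. The median ratios to Baseline were 1.10, 1.14, 1.38, 1.91 and 2.03 (mean 1.51 ± 0.43, SD, n = 5), given without a test because the Baseline call took part in the choice of members. The number of members whose call was at least 2-fold longer was 4 in Cl.3, 11 in Cl.6, 49 in Cl.9, 134 in R1 and 156 in R2. At Recovery the clones had medians of 4773, 4959 and 5273.5 bp, while R1 and R2 were at 4420.5 and 4424 bp. The members themselves were still called UMR over 99.4% to 100% of their base pairs in each Knockdown and Recovery library. PMD calls, which can overlap UMR calls, touched no member at Baseline. They touched 6 members in the Cl.9 Knockdown, 2 of them wholly, and 4 in the Cl.6 Knockdown, 1 of them wholly. The surroundings changed class far more. Highly methylated domain calls covered between 79.3% and 82.2% of the 5 kb flanks in the 5 Baselines. At Knockdown they covered 53.1% in Cl.3, 19.5% in Cl.6, 0.164% in Cl.9 and none in R1 and R2, and at Recovery 70.5%, 65.1%, 35.2%, 76.9% and 76.9%. In the clones the flanks therefore stayed short of their Baseline share, most of all in Cl.9.

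**Figure D4:**
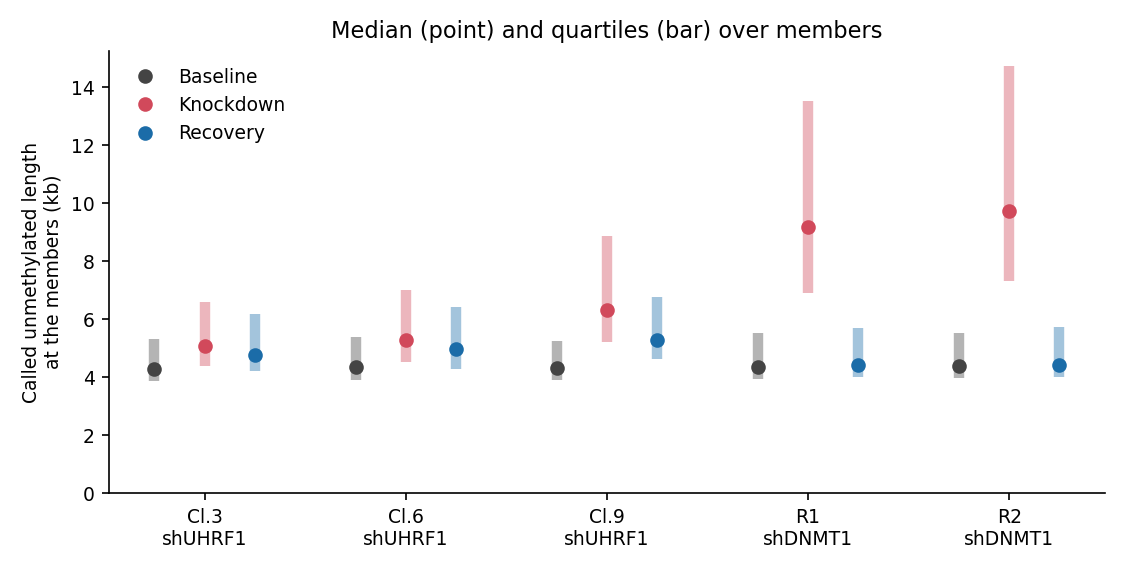
Length in kb (y axis from 0) of the authors' UMR call at the 304 members, as the median (point) and quartiles (bar) for each population at Baseline, Knockdown and Recovery. The Knockdown medians run from 5061.5 bp in Cl.3 to 9713 bp in R2, and the Recovery medians of R1 and R2 lie close to their Baselines.

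At Recovery core mC was 1.17% in Cl.3, 1.06% in Cl.6, 0.880% in Cl.9, 1.16% in R1 and 1.14% in R2. Relative to Baseline this was a change of -1.40 ± 1.18 points in the clones (-0.72 ± 0.16 without Cl.6) and of -0.09 ± 0.02 in the bulk populations. The outer 500 bp read 2.44%, 2.06%, 2.06%, 3.57% and 3.57%, changes of -3.27 ± 0.93 points in the clones (-2.81 ± 0.67 without Cl.6) and of -0.11 ± 0.06 in the bulk populations. Of the loss at Knockdown, the cores regained 5.95% in Cl.6, between 25.6% and 28.4% in the other 2 clones and between 84.8% and 89.0% in the bulk populations. The outer zone regained 11.5% in Cl.6, 17.6% and 18.8% in the other clones and 93.6% to 96.9% in the bulk populations, and the 500 bp beyond the edge regained 21.5% to 25.0% in the clones and 92.0% to 93.6% in the bulk populations. The clones and the bulk populations did not overlap in any of the 3 zones.

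On the sets chosen without the population read, Recovery mC as a percentage of Baseline differed between clones and bulk populations by -44.3 percentage points in the cores and by -55.5 in the outer 500 bp (exact two-sided permutation test over 3 against 2 populations, p = 0.2 for both, the smallest possible). The corresponding differences at Knockdown were -7.02 points (exact permutation p = 0.6) and -3.37 points (exact permutation p = 0.6). Without Cl.6 the differences were -35.1 and -52.8 points at Recovery and -1.26 and -1.62 at Knockdown. An exact permutation test of 3 against 2 cannot pass 0.05.

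The step from Knockdown to Recovery compares no library that had chosen the members. It was tested per piece in 303 of the 304 (1 fell short of 5 CpGs or of 50 reads in some library). The fit held all 15 libraries, which share 1 estimate of the spread. The Baselines that chose the members therefore entered that estimate. With shDNMT1, 170 members (56.1%) rose and 0 fell by edgeR's quasi-likelihood test with adjusted p under 0.05 and with population as a block, where 79.1% of all 30631 pieces rose and 0.0653% fell. The members' share was below that background and close to the 55.1% of the short pieces outside PMDs, a comparison given without a test. Of the 14910 long pieces inside PMDs, which hold far fewer CpGs per 100 bp, 99.2% rose, and these pieces count in the background. With pieces outside PMDs alone fitted, 146 of 303 members and 5003 of 12587 pieces rose. There the members' share was the larger, again without a test of the comparison. The median change over the members was 1.16 on the log2 odds scale, against 1.39 over all pieces. By limma 139 members rose. Without the block for population edgeR called 0 members (131 at an unadjusted p under 0.05) and 0 of all 30631 pieces. Without Cl.6 it called 217 members and 24809 of 30658 pieces. Without R1 or without R2, calls fell both at the members and over all pieces. The median change over the members was then 1.25 and 1.13.

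With shUHRF1, 0 members rose and 0 fell by the same edgeR test, where 0.0131% of all pieces rose and 0.00653% fell. At an unadjusted p under 0.05, 32 members were higher and 0 lower, and limma on log2 ratios also called 0, with 26 higher at an unadjusted p under 0.05. By edgeR unadjusted, 388 of 5579 short pieces outside PMDs were higher and 11 lower. Of 14910 long pieces inside PMDs, 403 were higher and 0 lower. The median change over the members was 0.39 on the log2 odds scale, against 0.27 over all pieces and 0.30 over the short pieces outside PMDs. On simulated counts in which few pieces changed, the edgeR test missed nearly all of the smaller changes put in, which were already larger than the median over the members, and many of the larger ones, so that the count of 0 does not show that no member rose. Pooled over members, mC was higher at Recovery in each clone, by 0.23 ± 0.06 points in the cores and 0.60 ± 0.09 in the outer 500 bp (SD, n = 3), against 0.60 ± 0.02 and 2.28 ± 0.03 in the bulk populations (n = 2). Core mC was higher at Recovery than at Knockdown in all 3 clones at 104 members and lower in all 3 at 10. In the bulk populations 228 members were higher in both and 11 lower.

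The difference between the hairpins in this step was called for 21 members (6.93%), all with a smaller rise in the clones, where 39.9% of all pieces were called in that direction, 0.0979% in the other, and 11.4% of the short pieces outside PMDs had the smaller rise. This count depended on single populations. By edgeR it was 9 without Cl.6, 0 without R1 and 0 without R2 (9 and 14 at an unadjusted p under 0.05). It was also 0 when pieces outside PMDs alone were fitted (51 unadjusted) and 0 without the block (11 unadjusted), while limma called 18. The count over all pieces in that direction fell in each of these edgeR fits too. It was 1210 of 30658 without Cl.6, 0 of 12587 outside PMDs alone and 0 of 30631 without the block.

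**Figure D5:**
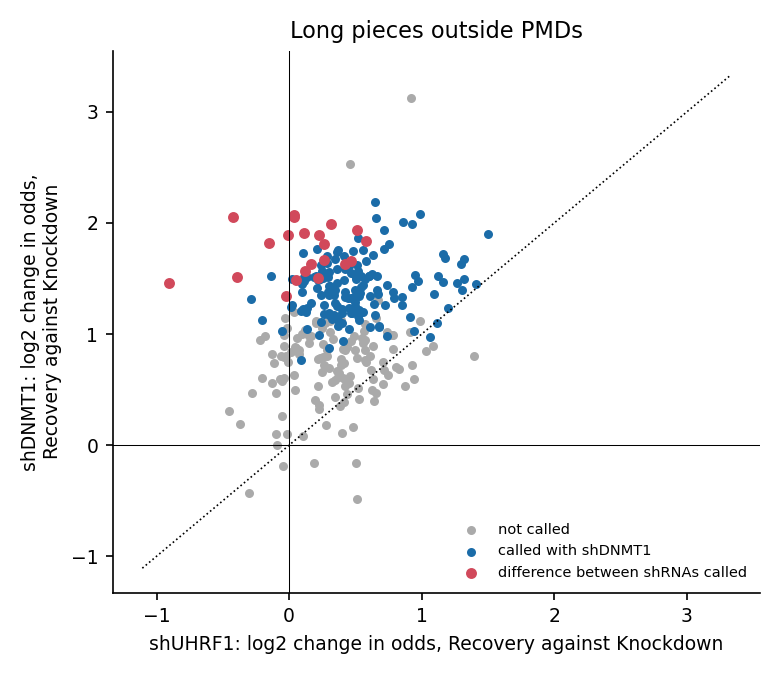
Each point is a tested member, plotted by its log2 change in the odds of a methylated read from Knockdown to Recovery with shUHRF1 (x axis) and with shDNMT1 (y axis); the dotted line marks equal change. Members called with shDNMT1 (blue, and the 21 in red for which the difference between the hairpins was called) lie mostly above the line. None was called with shUHRF1, where the test had little power for changes of the size seen.

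The 5 members with the largest rise after shDNMT1 Knockdown all held the 5′ end of a coding gene. GSK3B (chr3:120092749-120096280), the kinase that marks beta-catenin for destruction, rose by 2.19 ± 0.52 on the log2 odds scale (SE, edgeR adjusted p = 0.00038). In its outer 500 bp R1 went from 8.16% at Baseline to 2.02% and 12.7%, and R2 from 7.25% to 2.10% and 12.9%, while its core stayed between 0.078% and 0.425% in both. The rise at GSK3B therefore lay at the edge and reached above Baseline in both bulk populations. MYEOV (chr11:69293827-69297871), a gene overexpressed in some myelomas, rose by 2.08 ± 0.43 (edgeR adjusted p = 0.00015). Its core went from 5.01% to 0.999% and 4.43% in R1 and from 4.41% to 1.34% and 5.21% in R2, so that here the core took part.

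SPACA6, needed for sperm and egg fusion, rose by 2.07 ± 0.52 (edgeR adjusted p = 0.00057), GPBP1, which encodes a GC-rich promoter-binding protein, by 2.06 ± 0.56 (edgeR adjusted p = 0.0012), and TLE1, a Groucho family co-repressor, by 2.06 ± 0.51 (edgeR adjusted p = 0.00054). In the outer 500 bp of TLE1 (chr9:81687031-81690574) R1 read 1.46%, 0.572% and 5.81% and R2 3.53%, 0.509% and 3.24% at Baseline, Knockdown and Recovery. The clones read 2.84%, 1.97% and 3.15% (Cl.3), 8.82%, 4.80% and 1.91% (Cl.6) and 3.37%, 2.96% and 2.61% (Cl.9), so that 2 of the 3 clones were lower at Recovery than at Knockdown. TLE1, SPACA6 and GPBP1 were also among the 21 members for which the hairpins differed, with differences of -2.48 ± 0.65, -2.03 ± 0.74 and -2.02 ± 0.70 (edgeR adjusted p = 0.019, 0.032 and 0.029).

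Of the longest members, NR4A2 rose by 1.61 ± 0.47 with shDNMT1 (edgeR adjusted p = 0.0024), and the piece near RBM19 rose too (edgeR adjusted p = 0.00072). For TNRC18 the estimate was 0.89 ± 0.56 (edgeR adjusted p = 0.14) and for PHLDA1 0.89 ± 0.57 (edgeR adjusted p = 0.14), neither past the threshold. At the piece near RBM19 core mC in R1 went from 16.6% to 6.40% and 15.0%, and in R2 from 17.2% to 6.10% and 16.7%. In Cl.3 it went from 15.95% to 10.1% and 10.6%, in Cl.6 from 14.9% to 7.43% and 8.92%, and in Cl.9 from 16.8% to 4.43% and 5.95%. All 3 clones ended below both bulk populations, and the difference between the hairpins there was -1.28 ± 0.50 (edgeR adjusted p = 0.040). Among CpG-poor members 22 of 29 (75.9%) rose with shDNMT1, close to the 79.1% of all pieces, and among CpG-rich members 148 of 274 (54.0%).

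In the regulatory families the rise with shDNMT1 was called at 4 of 8 immediate early, 3 of 4 basic helix-loop-helix, 1 of 4 KLF and SP, 2 of 2 ZIC and GLI, 2 of 3 nuclear receptor, 2 of 4 homeobox, 1 of 2 forkhead, 1 of 1 SOX and 4 of 4 signalling members, where 79.1% of all pieces rose. HES1 (chr3:194133836-194138042), a Notch target, had core mC of 4.60%, 6.55%, 4.07%, 2.71% and 3.20% at Baseline in Cl.3, Cl.6, Cl.9, R1 and R2. At Knockdown it had 0.890%, 1.47%, 1.36%, 1.17% and 1.01%, and at Recovery 1.04%, 2.57%, 1.49%, 2.54% and 2.64%. HES1 rose from Knockdown to Recovery by 1.34 ± 0.45 on the log2 odds scale with shDNMT1 (edgeR adjusted p = 0.0065). JUNB (chr19:12788624-12794380) had 1.75%, 4.62%, 1.45%, 1.18% and 0.897% at Baseline, 1.04%, 0.528%, 0.455%, 0.416% and 0.311% at Knockdown, and 1.79%, 1.2%, 0.596%, 1.00% and 0.909% at Recovery. JUNB rose by 1.26 ± 0.50 with shDNMT1 (edgeR adjusted p = 0.021). Both genes had their lowest level in every population at Knockdown.

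GLIS2, a Kruppel-like zinc finger gene, had among the higher cores of these families, with 3.51%, 7.30%, 3.10%, 5.47% and 3.82% at Baseline, 1.81%, 3.54%, 1.17%, 1.33% and 1.30% at Knockdown and 4.17%, 4.30%, 1.78%, 3.73% and 3.35% at Recovery. In Cl.3 it was higher at Recovery than at Baseline. FOXO3, a stress-responsive forkhead factor gene, marks the other end, with 0.446%, 2.60%, 0.289%, 0.348% and 0.343% at Baseline, 0.523%, 0.622%, 0.273%, 0.253% and 0.206% at Knockdown and 0.615%, 0.531%, 0.445%, 0.202% and 0.288% at Recovery. Apart from the Cl.6 Baseline these values were near the mitochondrial background, so that a change at FOXO3 could not be told from that background. SOX12 differed in its outer 500 bp, which read 17.0%, 16.6%, 11.8%, 11.5% and 8.90% at Baseline, 13.2%, 12.5%, 8.51%, 3.34% and 3.78% at Knockdown, and 7.45%, 9.81%, 6.91%, 9.29% and 12.01% at Recovery. There the 3 clones were lower at Recovery than at Knockdown while both bulk populations were higher.

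Long pieces outside PMDs were also set beside the short pieces outside PMDs. The outer 500 bp lies at the same distance from the edge in both. The cores of the long pieces reach further from it (median piece length 4100 bp against 1926.5 bp), and 9.87% of the long pieces were CpG-poor against 1.63%. At Knockdown the core change was larger in the long pieces by 0.52 ± 0.13 points (SD, n = 5, as a difference of -0.52), in the same direction in all 5 populations. For the outer 500 bp the difference was -0.58 ± 0.33 points, again in the same direction in all 5. At Recovery the differences were -0.26 ± 0.20 points in the cores and -0.23 ± 0.39 in the outer zone, where R1 and R2 had the opposite sign. The long pieces also started higher, at 1.22% to 3.81% in the cores where the short pieces read 0.550% to 3.16%. The Baseline calls set both the length and the level of these pieces, so that the comparison is a description, given without a test.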

How the data were processed

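The authors deposited, for each CpG of hg38, the counts of methylated reads and of all reads in 15 whole-genome bisulfite libraries of HCT116, in 3 count tables of 29456478 positions, and 15 domain files that divide the genome into classes. Per the study's methods, reads were aligned to hg38 with Meth10X, MethylSeekR gave the UMR, low-methylated region and PMD calls, and the remainder with mean mC of at least 80%, taken with bedtools 2.25.0 (a version given in the methods and the submitters' processing notes), formed the highly methylated domains. The methods also name the versions and a minimum coverage for the authors' downstream analyses, while the deposited tables hold CpGs below it too. How duplicate reads and variant positions were treated is not given in the sources used here. The domain files hold class labels (unit other) and were used as deposited. All 30 value columns matched a library.

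Libraries were grouped by their titles. Counts were summed over 27852739 autosomal CpGs by zone (core and outer 500 bp) with Python 3.11.15, pandas 2.3.3 and pysam 0.24.0, and mC is methylated over all reads. Methylated and unmethylated counts of the 30631 pieces that reached 5 CpGs, and 50 reads in each library, were fitted with edgeR 4.0.16 (R 4.3.3) with population as a block, adjusted over all pieces with the Benjamini-Hochberg method, and called at an adjusted p of 0.05. limma 3.58.1 was an alternative. Population was used as a block because the 3 libraries of a clone or bulk population share their cells of origin by the labels. Deviations from the group means correlated between stages within clones (r = 0.33 to 0.56) and not within bulk populations (r = -0.06 to -0.01). Replicates of a group differed beyond sampling noise (chi-square per piece 1.61 to 22.8). The scripts were tested on simulated data, where the per-piece test found few of the smaller changes.

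The text names the 10 longest members, the 5 with the largest core gain and loss at Knockdown for each hairpin among members with 1 direction in every population, the 5 with the largest called rise and fall from Knockdown to Recovery, the pieces next to the length limit, and the longest members at genes of fixed lists. GLIS2, FOXO3 and SOX12 were picked from those lists after their values had been seen. The rule, the members and the lists were chosen with earlier results of these data known. Genes are from GENCODE 44. Alternatives were another length limit, outer width, read minimum, weighting, class rule, filter and tool, and fits without the block and without each population. Added after seeing the data were subtraction of mitochondrial methylation, CpG-rich members alone, well-covered members alone, pieces outside PMDs alone, and shares of Baseline without Cl.6.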

Additional observations from a re-analysis of the deposited data

Results flagged for a closer look

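The rise from Knockdown to Recovery differed between the hairpins at 21 of 303 tested members by the interaction term of edgeR's quasi-likelihood test, in each case with the smaller rise in the shUHRF1 clones. This share of 6.93% stands beside 39.9% of all pieces, and the count was 0 without R1, without R2, without the block for population and with pieces outside PMDs alone. It led with TLE1 (-2.48 ± 0.65 on the log2 odds scale, SE, edgeR adjusted p = 0.019), followed by a piece near NPIPB3 and by SPACA6, GPBP1, DBP (a clock output factor gene) and SOX12. In the fits that called 0 members, calls over all pieces in the same direction fell as well. They were 0 without the block and with pieces outside PMDs alone. Hairpin, clonal or bulk origin and count table cannot be told apart in this difference.

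Mitochondrial CpGs, which the main comparisons do not use, read as 2.50% methylated in the Cl.6 Baseline against 0.257% to 0.500% in the other 14 libraries. In the same library core mC of the members was 3.81%, against 1.22% to 1.77% in the other 4 Baselines, and the share of core CpGs without any methylated read was 60.3%, against 74.7% to 85.6% in the other 4. The cause was not tested.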

How the results depend on the processing

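Of 116 alternative values of the changes in mC and of the length ratio, 115 kept their direction. The exception was the outer 500 bp at Recovery with shDNMT1, which was 0.029 points with each piece weighted equally. A change of over 1.5 times occurred in 15 of the 116. For the 8 changes in mC, the value without the block equals the main value by construction and could not reverse. Core changes with shUHRF1 were -0.98 at Knockdown and -0.72 at Recovery without Cl.6, and -0.98 and -0.74 with mitochondrial methylation subtracted. Core changes with shDNMT1 at Knockdown were -1.21 for CpGs with at least 10 reads in all libraries, -1.19 with each piece weighted equally and -1.05 with a minimum length of 5 kb. At Recovery they were -0.19 for those CpGs and -0.17 with that minimum length. With an outer zone of 1000 bp the outer Knockdown changes were -2.54 and -1.38, and the Recovery change with shUHRF1 was -2.15. The outer Recovery change with shDNMT1 was -0.33 with a minimum length of 5 kb and -0.072 without R1. In percent of Baseline the difference between clones and bulk populations at Knockdown went from -7.02 to -1.26 points in the cores and from -3.37 to -1.62 in the outer zone without Cl.6, and it kept its direction. The causes were not tested beyond what each alternative changes.

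Of 46 alternative counts of called pieces, 33 were within 1.5 times. Populations are the blocks of the edgeR fit. Without that pairing 0 members rose from Knockdown to Recovery with shDNMT1 (131 at an unadjusted p under 0.05, and 139 by limma with the block). For the difference between hairpins the count was also 0 (11 unadjusted). Of all 30631 pieces, 0 were called in either comparison. At Knockdown 285 of 502 fell with shUHRF1 and 319 of 379 with shDNMT1, and no other count of members changed. With a minimum length of 5 kb, which leaves fewer pieces, the counts were 36 for the rise with shDNMT1, 6 for the difference, and 119 and 103 at Knockdown. With pieces outside PMDs alone the rise with shDNMT1 was called at 146 members and the difference at 0 (51 unadjusted). Leaving out each population in turn gave 36 to 217 for the rise with shDNMT1 and 0 to 26 for the difference. The rise was called at 36 members without R1 and at 37 without R2, and the difference at 0 without either (9 and 14 unadjusted) and at 9 without Cl.6. In the fits without R1 or without R2 the lone bulk population was assumed to vary like the clones, and calls over all pieces fell too. The Knockdown fit with shDNMT1 without a bulk population was not run, since it has no residual degrees of freedom. Depth limits the values of the 25 members with fewer than 5 reads per core CpG in a library.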
